A study of Mus musculus with 6 samples.

Results

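Glycogen genes were followed in mouse ovaries that lack Galt. The 10 genes described here are 5 that encode glycogen-targeting subunits of protein phosphatase 1 (Ppp1r3b, Ppp1r3c, Ppp1r3d, Ppp1r3e and Ppp1r3f), 3 that build glycogen (Gys1, Gbe1 and Gyg) and 2 that break it down (Pygb and Pygl). They were taken by symbol from a table of 55487 Ensembl genes, and all 10 had enough reads to be tested. The group was chosen by the measured level of Ppp1r3e, which is much lower in ovaries without Galt, so the difference of Ppp1r3e is described without a test. The differences of the other 9 come from the same contrast. They are likewise descriptions, and adjusted p-values beside them only record where each gene stood among all genes.

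The 6 libraries were made from total RNA of whole ovaries at postnatal day 49, with 3 samples from wildtype mice and 3 from GalT-/- mice, named GalTKO. After weaning, all of them were fed 2.5% galactose for 4 weeks, and the labels give 1 mixed strain background, cbl/6-ola/129, for all samples. There was no group without galactose, so the diet is common to every value given here. Galt encodes galactose-1-phosphate uridylyltransferase, an enzyme of the Leloir pathway of galactose use that is defective in classic galactosemia. Whether a sample stands for 1 animal is not stated. The p-values thus reflect only how far these libraries vary, which may be technical.

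Libraries held 19232486 to 25729564 counts. Mitochondrial genes took 1.37% to 1.97% of counts in wildtype and 2.22% to 3.53% in GalTKO libraries. Levels are given as CPM, the counts divided by the scaled library size and set to a common total. Galt reached 16.1 to 17.8 CPM in the wildtype libraries and 0 to 0.259 CPM in the GalTKO libraries. The granulosa genes Amh, Foxl2 and Inha and the oocyte genes Zp3 and Gdf9 were present in all 6 libraries. Summed over 8 macrophage markers, the level was 409 to 497 CPM in wildtype and 256 to 285 CPM in GalTKO libraries. Of the 8, 5 passed the edgeR test, all lower. Over all tested genes 2.55% passed, 1.43% as lower and 1.13% as higher, which also stands beside the calls below. Summed over 5 theca and interstitial markers it was 10068 to 15843 CPM in wildtype and 6358 to 9958 CPM in GalTKO libraries, with 0 genes past the edgeR test. In that list Cyp11a1, Hsd3b1 and Lhcgr, which make up most of the sum, had lower GalTKO means, while Cyp17a1 and Insl3 had higher ones, at log2 fold changes of 0.92 ± 1.20 and 0.96 ± 0.45 (SE). Of 5 luteal markers Star passed the test as lower, at -1.13 ± 0.19. The groups of Prlr (-0.92 ± 0.25) and Scarb1 (-1.12 ± 0.23) did not overlap, as for 23.7% of all tested genes. Those of Akr1c18 (0.53 ± 0.92) and Ptgfr (-0.03 ± 0.51) overlapped. The luteal sums overlapped too, at 5115 to 6272 CPM in wildtype and 2193 to 5330 CPM in GalTKO libraries. Of 7 granulosa markers Amh passed as higher, at 0.76 ± 0.12, and Nr5a2 as lower, at -0.64 ± 0.13. GalTKO replicate 2 stood apart in the theca gene Cyp17a1, at 7.29 CPM against 400 and 296 CPM in the other GalTKO libraries.

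Glycogen is a branched store of glucose. Glycogenin (Gyg) primes the chain, glycogen synthase (Gys1) lengthens it from UDP-glucose, and the branching enzyme (Gbe1) adds branch points, while the phosphorylases (Pygb, Pygl and, in muscle, Pygm) release glucose 1-phosphate. Protein phosphatase 1 (PP1) activates the synthase and switches off phosphorylase and phosphorylase kinase by removing phosphates. It reaches glycogen through the Ppp1r3 proteins, each of which binds the phosphatase by a short RVxF docking motif and glycogen by a carbohydrate-binding module. UDP-glucose is also the partner that GALT uses when it converts galactose 1-phosphate, which places glycogen synthesis next to the Leloir pathway.

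The docking site is what makes these proteins PP1 subunits, and the codons that encode it are shown to let the 5 genes be compared. Each line holds 45 coding bases from the GENCODE M21 transcripts on GRCm38, with the 12 bases of the RVxF codons in capitals. The stretches were found by searching each encoded protein for RVxF followed by the residues AD. The motif and part of the identity given below are thus fixed by the search. A looser form of RVxF matched at 4 sites in Ppp1r3c and at 1 site in Ppp1r3b, Ppp1r3d, Ppp1r3e and Ppp1r3f.
Ppp1r3b: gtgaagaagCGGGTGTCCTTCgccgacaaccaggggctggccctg
Ppp1r3c: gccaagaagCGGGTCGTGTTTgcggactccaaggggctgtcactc
Ppp1r3d: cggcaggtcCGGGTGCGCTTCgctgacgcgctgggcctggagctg
Ppp1r3e: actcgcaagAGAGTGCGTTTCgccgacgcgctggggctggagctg
Ppp1r3f: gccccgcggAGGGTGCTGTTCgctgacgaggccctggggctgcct
The Ppp1r3e stretch is at chr14:54877010-54877054 on the minus strand. Counted base by base without gaps, 32 of its 45 bases were identical in Ppp1r3d, 28 in Ppp1r3b, 24 in Ppp1r3c and 23 in Ppp1r3f. The likeness did not extend to identical stretches of 50 bases in annotated transcripts. Near matches and sequence outside those transcripts were not searched. None of the 2501 windows of 50 bases in the Ppp1r3e transcripts occurred in a transcript of another gene, nor did any of Ppp1r3c, Ppp1r3d, Gbe1 or Gyg. Ppp1r3f was the exception among the 10, with 50.7% of its windows shared, all with 3 genes that overlap it, Gm36995 on its own strand and Flicr and Foxp3 on the other. Gys1 shared 5.79% of its windows with 25 other genes, and the remaining 3 genes shared under 1% of theirs.

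Ppp1r3e was the leading targeting subunit of the wildtype ovary and was about 5-fold lower in GalTKO ovaries. The gene (ENSMUSG00000072494) lies on GRCm38 chromosome 14, from 54872669 to 54877550, on the minus strand. Wildtype replicates 1 to 3 had 22.2, 23.2 and 24.6 CPM. GalTKO replicates 1 to 3 had 4.64, 4.57 and 4.94 CPM. The groups lay far apart, and the libraries within each genotype were close together. The coefficient of variation was 5.20% in wildtype and 4.19% in GalTKO libraries. Means were 23.4 ± 1.21 and 4.72 ± 0.20 CPM (SD, n = 3), a ratio of 4.95, and the log2 fold change was -2.31 ± 0.12 (SE). Of all 16957 tested genes, 0.973% had a larger log2 fold change in either direction. With any 1 library left out the log2 fold change stayed between -2.34 and -2.27. The same libraries chose the gene, so its rank and these fits describe the difference and do not test it. In whole ovaries, fewer cells that express the gene and less RNA per cell cannot be told apart. Single macrophage, luteal and granulosa markers passed the test, as did Plin1 of the adipocyte list, at 1.06 ± 0.13. The macrophage and theca sums and the mitochondrial share did not overlap between the genotypes. The luteal, granulosa, adipocyte and oocyte sums overlapped. Of 6 oocyte markers 0 passed, with Oosp1 at 0.66 ± 0.18 and Ddx4 at -1.08 ± 0.35. The part of these in the Ppp1r3e difference was not tested.

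Ppp1r3b, the subunit best known from liver, showed higher values in GalTKO ovaries (ENSMUSG00000046794; chromosome 8, 35375739 to 35388139). Wildtype replicates 1 to 3 had 6.32, 3.81 and 5.24 CPM. GalTKO replicates 1 to 3 had 11.2, 11.7 and 8.48 CPM. The lowest GalTKO library lay above the highest wildtype library. The means differed 2.05-fold, and the log2 fold change was 1.03 ± 0.22 (SE), just outside the threshold of 0.05 with an edgeR adjusted p of 0.0532. Other settings put it on either side of the threshold. With DESeq2 the adjusted p was 0.00117, with no filter on low counts 0.00175 and with upper-quartile scaling 0.0488. With any 1 library left out the adjusted p lay between 0.0569 and 0.171, with a log2 fold change from 0.85 to 1.21. The sum of 5 hepatocyte markers was 14.8 to 26.7 CPM in wildtype and 26.9 to 33.7 CPM in GalTKO libraries, nearly all of it Apoa1. The defining liver genes were at or near 0, with Ttr at 0 and Alb at no more than 0.12 CPM in every library.

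The other 3 targeting subunits had overlapping groups. Ppp1r3c, also called protein targeting to glycogen (chromosome 19, 36731731 to 36736653), was at 4.24, 4.27 and 4.81 CPM in wildtype and 5.26, 7.76 and 4.42 CPM in GalTKO replicates 1 to 3. GalTKO replicate 2 was the highest library, and without it the log2 fold change went from 0.39 ± 0.24 (SE) to 0.13. Ppp1r3d (chromosome 2, 178411206 to 178414472) was at 3.40, 3.34 and 3.60 CPM in wildtype and 3.99, 3.32 and 2.71 CPM in GalTKO replicates 1 to 3, a log2 fold change of -0.04 ± 0.22. Its GalTKO values spread on both sides of the narrow wildtype range. Ppp1r3f (chromosome X, 7557296 to 7574283) had 19 to 45 counts per library and 0.823 to 2.34 CPM. Its log2 fold change of 0.12 ± 0.41 turned to -0.16 without wildtype replicate 3 and to -0.26 without GalTKO replicate 3. With 46.9% of its exon bases also in exons of Gm36995, the value of Ppp1r3f depends on how shared reads were counted and is uncertain. The fit over all genes called 1 of the 10, Ppp1r3e, whose difference chose the group, so nothing is read from that count. Over all tested genes 2.55% were called, 1.43% as lower and 1.13% as higher in GalTKO ovaries.

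**Figure D1:**
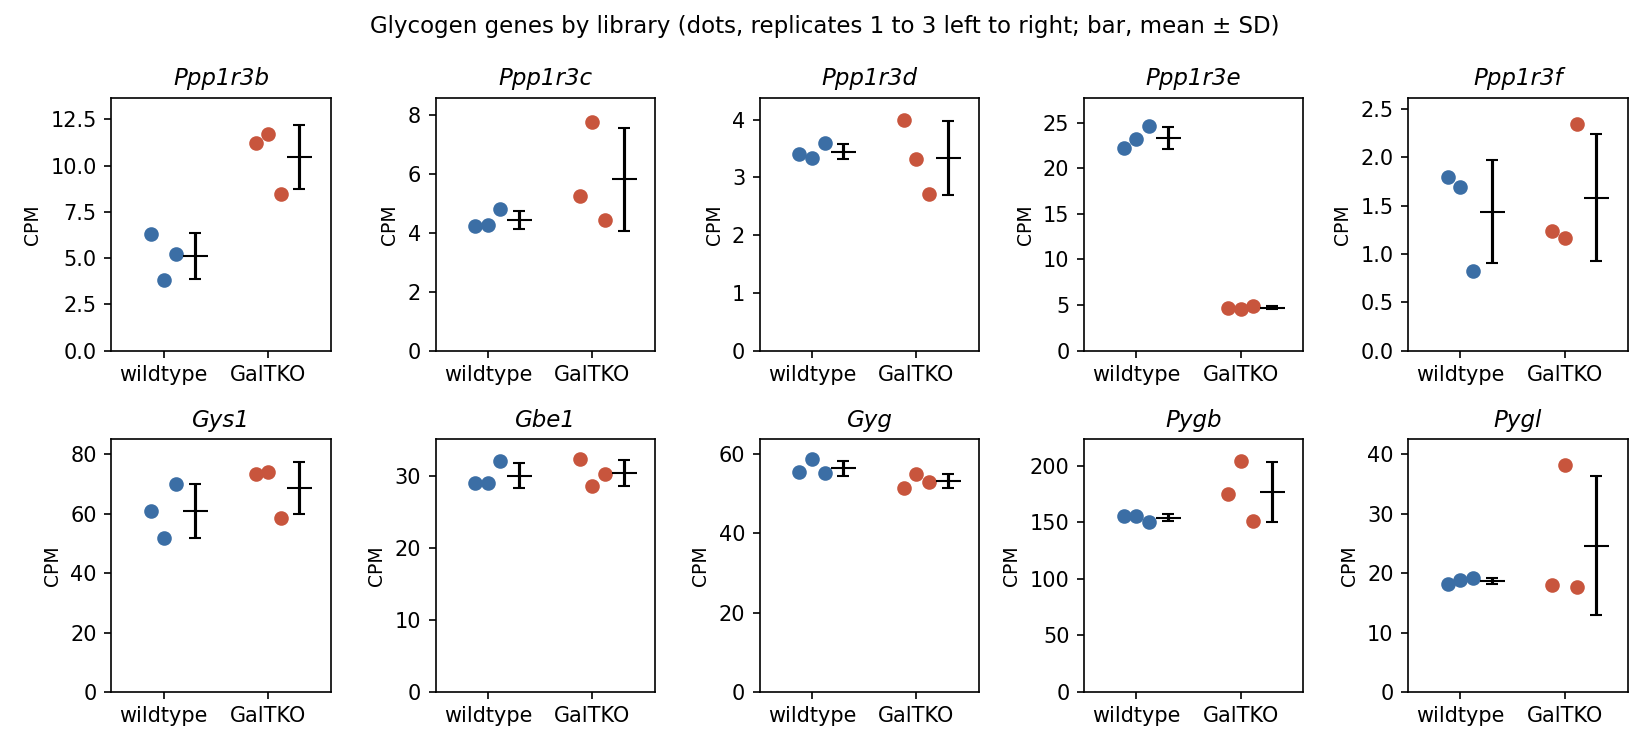
Level of each of the 10 glycogen genes in CPM (vertical axes from 0) in the 3 wildtype and 3 GalTKO libraries (dots), with mean and SD (bars). Ppp1r3e separates the genotypes most widely, Ppp1r3b is higher in every GalTKO library, and GalTKO replicate 2 holds the highest Pygl value.

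The make-up of the targeting subunits differed between the genotypes. The lower Ppp1r3e that chose the group enters each share, the full sum and the ratio of Ppp1r3b to Ppp1r3e. These are thus descriptions without a test. To compare genes, counts were divided by the length of their exons in kilobases (kb), and all 7 Ppp1r3 genes of the table were summed, including Ppp1r3a and Ppp1r3g. Ppp1r3e held 67.6%, 70.3% and 70.2% of this sum in the wildtype libraries, and 24.4%, 21.7% and 30.0% of it in those lacking Galt. Ppp1r3b went from 6.14 ± 1.55% to 22.3 ± 1.48% and Ppp1r3c from 12.1 ± 0.41% to 28.0 ± 5.07% (SD, n = 3). In GalTKO ovaries no subunit held a majority. Shares add up to the whole, so a lower Ppp1r3e raises every other share by construction. The summed level itself was 13.4 ± 0.50 CPM per kb in wildtype and 7.53 ± 0.93 CPM per kb in GalTKO ovaries, a ratio of 0.561. Without Ppp1r3e the sum was 4.11 ± 0.18 and 5.65 ± 1.01 CPM per kb, and the groups again did not overlap. Ppp1r3b reached 0.0889 ± 0.024 of the Ppp1r3e level in wildtype and 0.901 ± 0.183 of it in GalTKO libraries, both per kb.

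**Figure D2:**
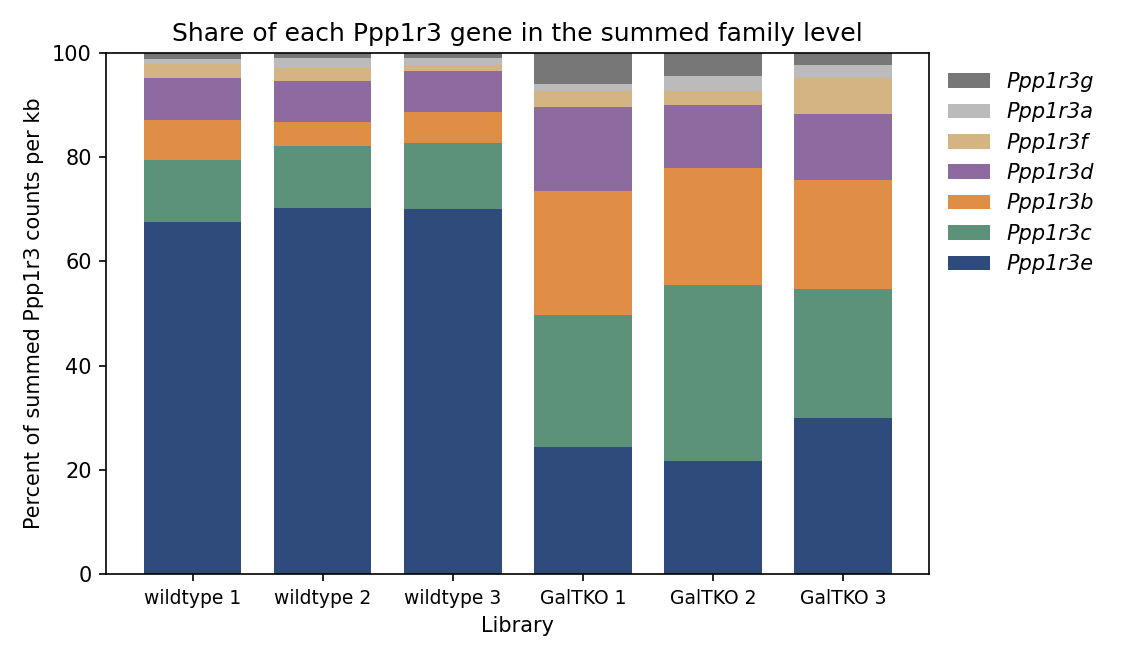
Share of each Ppp1r3 gene (stacked bars, percent of the summed counts per kb of exon) in each library. Ppp1r3e takes 67.6% to 70.3% of each wildtype library and 21.7% to 30.0% of each GalTKO library. In the GalTKO libraries Ppp1r3c takes 24.7% to 33.8% and Ppp1r3b 20.8% to 23.8%.

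Of the subunit genes outside the group of 10, Ppp1r3a, the muscle subunit, was at 0.735 to 1.78 CPM, with a log2 fold change of -0.12 ± 0.40 (SE). Ppp1r3g fell below the filter on low counts and was not tested. It had 10, 8 and 9 counts in wildtype and 31, 23 and 8 counts in GalTKO replicates 1 to 3, so GalTKO replicate 3 was near the wildtype libraries. The same search found 1 match in each, and their stretches are printed because they complete the family. The looser form matched at 2 sites in Ppp1r3a.
Ppp1r3a: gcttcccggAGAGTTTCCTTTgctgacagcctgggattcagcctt
Ppp1r3g: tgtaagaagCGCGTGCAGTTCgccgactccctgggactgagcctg
In these stretches 24 and 30 of the 45 bases were identical to those of Ppp1r3e.

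Genes that build glycogen differed little between the genotypes. Gys1, the synthase found outside liver (ENSMUSG00000003865; chromosome 7, 45434844 to 45456619), was at 61.0, 51.9 and 70.0 CPM in wildtype and 73.5, 74.1 and 58.7 CPM in GalTKO replicates 1 to 3. Values of both genotypes overlapped, and the log2 fold change was 0.17 ± 0.13 (SE). Of its exon bases 6.47% lie in exons of Ruvbl2 on the other strand, and whether counting used strand is not stated. Gbe1, the branching enzyme (chromosome 16, 70313949 to 70569716), had means of 30.0 ± 1.75 CPM with Galt and 30.3 ± 1.85 CPM without it (SD, n = 3), the closest pair among the 10 genes in proportion. Gyg, the primer protein (chromosome 3, 20122084 to 20155317), was at 55.4, 58.7 and 55.2 CPM in wildtype and 51.6, 55.0 and 53.0 CPM in GalTKO replicates 1 to 3. Its groups did not overlap by a narrow margin, as for 3 of the 10 genes (Ppp1r3b, Ppp1r3e and Gyg) and 23.7% of all tested genes, and the log2 fold change was -0.08 ± 0.08. Gys2, the liver synthase, had 2 counts in the wildtype and 4 in the GalTKO libraries together.

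Pygb and Pygl, the breakdown genes among the 10, had higher means in GalTKO ovaries, with overlapping groups. Pygb, the brain-type phosphorylase (ENSMUSG00000033059; chromosome 2, 150786735 to 150831758), was at 156, 156 and 151 CPM in wildtype and 175, 204 and 151 CPM in GalTKO replicates 1 to 3, a log2 fold change of 0.20 ± 0.11 (SE). GalTKO replicate 3 was at the wildtype level. Pygl, the liver-type phosphorylase (ENSMUSG00000021069; chromosome 12, 70190811 to 70231488), was at 18.2, 18.8 and 19.1 CPM in wildtype and 18.0, 38.1 and 17.7 CPM in GalTKO replicates 1 to 3. Only GalTKO replicate 2 differed from the rest. The log2 fold change of 0.40 ± 0.30 with all libraries became -0.07 without it. In that library the luteal marker sum was also lowest, at 2193 CPM against 3590 and 5330 CPM in the other GalTKO libraries, and the smooth muscle marker sum was highest, at 1429 CPM against 1258 and 910 CPM. The part of these in the Pygl value was not tested. Neither gene passed the test, nor did the 3 synthesis genes (edgeR, with none of these 5 at an unadjusted p under 0.05, and none called by DESeq2). Adjusted p over the 8 genes other than Ppp1r3e and Ppp1r3b ran from 0.419 to 0.951.

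The phosphorylase types kept one order in both genotypes. Per kb, Pygb made up 75.2 ± 1.97% of the 3 phosphorylases in wildtype and 76.4 ± 2.57% in GalTKO ovaries, Pygm 18.4 ± 2.35% and 16.4 ± 2.78%, and Pygl 6.37 ± 0.40% and 7.20 ± 2.30% (SD, n = 3). The level of Gys1 was 0.300 ± 0.051 of the summed phosphorylase level in wildtype and 0.300 ± 0.030 in GalTKO libraries, both per kb. Skeletal muscle RNA was nearly absent, with Ckm at no more than 0.426 CPM and Myh4 at no more than 0.052 CPM, while Pygm stood at 22.3 to 30.2 CPM.

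Ordered by level per kb, the enzymes stood above most of the targeting subunits. In wildtype ovaries the order was Pygb, at 32.0 ± 0.62 CPM per kb, then Gyg, Gys1, Ppp1r3e, Gbe1, Pygl, Ppp1r3c, Ppp1r3d, Ppp1r3b and, at 0.279 ± 0.104, Ppp1r3f (SD, n = 3). No neighbours in this order overlapped in their 3 values, although Ppp1r3d and Ppp1r3b came close, with 1.02 as the lowest value of the first and also, rounded, the highest of the second. Ppp1r3e stood at 9.32 ± 0.48 CPM per kb, above 63.7% of the 14351 tested protein-coding genes, while the other 4 subunits stood above 6.88% to 23.6% of them. In GalTKO ovaries Ppp1r3e moved from the fourth to the seventh place, at 1.88 ± 0.079 CPM per kb. There its values overlapped those of Ppp1r3c (2.13 ± 0.64) above it and of Ppp1r3b (1.69 ± 0.28) below it. Gbe1 and Pygl also overlapped there, as did Pygl and Ppp1r3c, and no other neighbours did.

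Among 52 other genes of glycogen metabolism and its control, 46 were tested and 1 passed, lower in GalTKO ovaries, beside 2.55% of all tested genes. The median log2 fold change of the 46 was -0.08, against 0.02 over all tested genes, with 33 negative and 13 positive. Their groups did not overlap for 11 of 46 genes, beside 23.7% of all tested genes, and 6 had an unadjusted p under 0.05, beside 17.1% of all. The gene that passed was Prkag2, a regulatory gamma subunit of AMP-activated protein kinase, which phosphorylates glycogen synthase. It was at 75.2, 70.9 and 56.7 CPM with Galt and 46.0, 45.7 and 47.6 CPM without it in replicates 1 to 3. Every wildtype library lay above the GalTKO libraries, which were close together. The log2 fold change was -0.54 ± 0.11 (SE) with an edgeR adjusted p of 0.0495, and the call was lost in 5 of 6 fits with a library left out, all but that without wildtype replicate 3 (adjusted p up to 0.176).

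Genes of the kinases that act on glycogen synthase and phosphorylase kinase had a median log2 fold change of -0.10, against 0.02 over all tested genes. Of 16 tested, 13 were negative, and 2 had an unadjusted p under 0.05 in edgeR, beside 17.1% of all tested genes. Gsk3b, a glycogen synthase kinase, had means of 325 ± 17.5 CPM with Galt and 267 ± 2.07 CPM without it (SD, n = 3), with a log2 fold change of -0.28 ± 0.08 (SE) and an adjusted p of 0.125 in edgeR. Prkar2b, a regulatory subunit of protein kinase A, stood at 0.27 ± 0.13. Of the 6 genes for PP1 catalytic subunits and inhibitors none passed in edgeR or DESeq2, and 2 had an unadjusted p under 0.05. The catalytic subunit genes Ppp1ca and Ppp1cb, which all Ppp1r3 proteins can use, were at 234 ± 8.69 and 370 ± 13.0 CPM in wildtype and 234 ± 13.8 and 353 ± 24.3 CPM in GalTKO ovaries. Ppp1cc stood at -0.35 ± 0.13, and the inhibitor gene Ppp1r1a at 1.68 ± 0.65 on 28 counts in the wildtype and 90 in the GalTKO libraries together.

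The remaining groups had no member past the test in edgeR or DESeq2. Of 4 tested synthesis genes 1 had an unadjusted p under 0.05. Pgm2, a phosphoglucomutase family gene, stood at 0.26 ± 0.11 (log2 fold change, SE) and Ugp2, which makes UDP-glucose, at -0.17 ± 0.08. The mean of Ugp2 was 89.2 ± 4.45 CPM with Galt and 79.5 ± 3.28 CPM without it (SD, n = 3). Of 9 breakdown genes 1 had an unadjusted p under 0.05. Phka2, a phosphorylase kinase subunit, stood at -0.34 ± 0.15 and the calmodulin gene Calm2, which encodes another subunit of that kinase, at 0.28 ± 0.11. None of 5 genes of lysosomal breakdown and glycogen quality control, and none of 5 for sugar phosphate entry, had an unadjusted p under 0.05. Gaa, the lysosomal glucosidase, stood at -0.10 ± 0.15, the laforin partner Nhlrc1 at -0.28 ± 0.24, the glucose 6-phosphate transporter gene Slc37a4 at -0.25 ± 0.14 and Gpi1, which converts glucose 6-phosphate, at -0.16 ± 0.10.

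**Figure D3:**
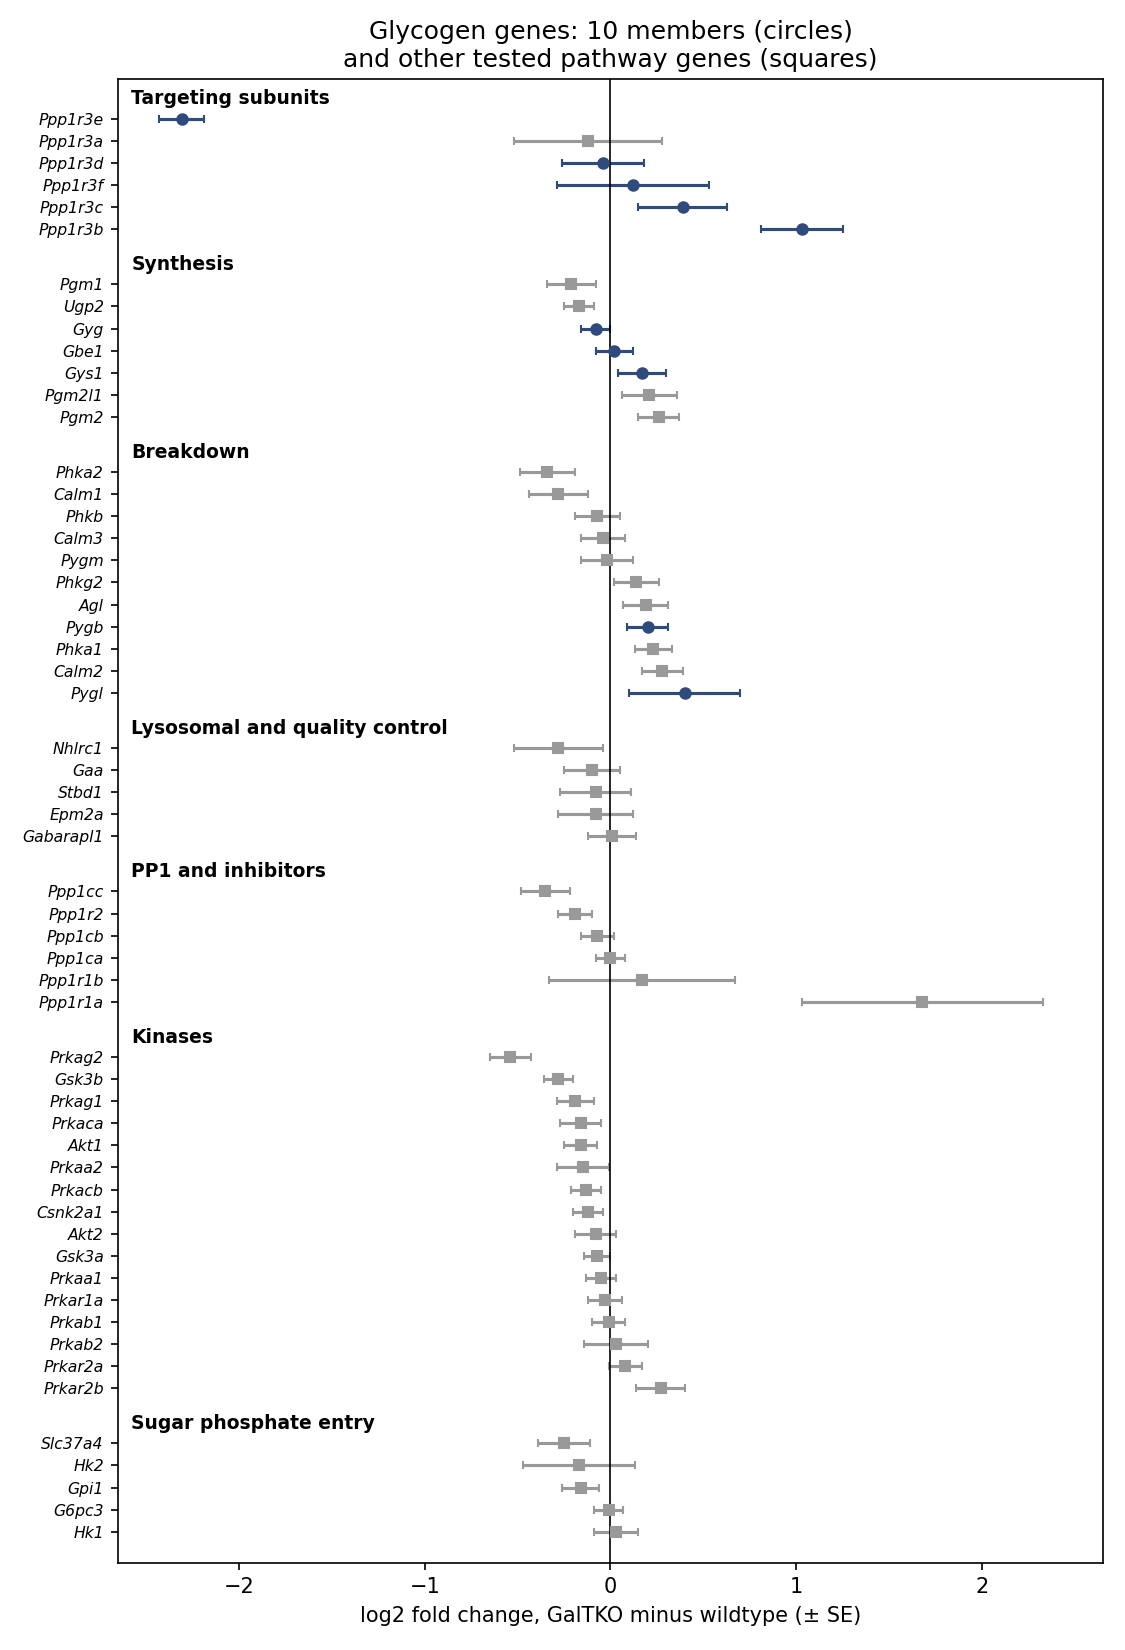
Log2 fold change between GalTKO and wildtype ovaries (horizontal axis, bars are SE) of the 10 glycogen genes (circles) and 46 other tested pathway genes (squares), by role. Ppp1r3e lies at -2.31, far from the other genes, most of which lie near 0.

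The nearest genes on both sides of Ppp1r3e lay near 0 on the log2 scale. No annotated gene overlaps it. Homez, which starts 1708 bases beyond its end on the same strand, had means of 20.5 CPM with Galt and 21.6 CPM without it, and a log2 fold change of 0.08 ± 0.10 (SE). Bcl2l2, whose start lies 5827 bases away on the other strand, stood at -0.06 ± 0.13. Over the 24 other tested genes within 500 kb of its start, the median log2 fold change was 0.07, with a range from -0.64 to 1.71. The highest was Rem2, whose groups overlapped. Of the 24 genes 1 passed the test, beside 2.55% of all tested genes. That gene, Psmb5, a subunit of the proteasome, had a log2 fold change of -0.64 ± 0.11 and an edgeR adjusted p of 0.0207.

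**Figure D4:**
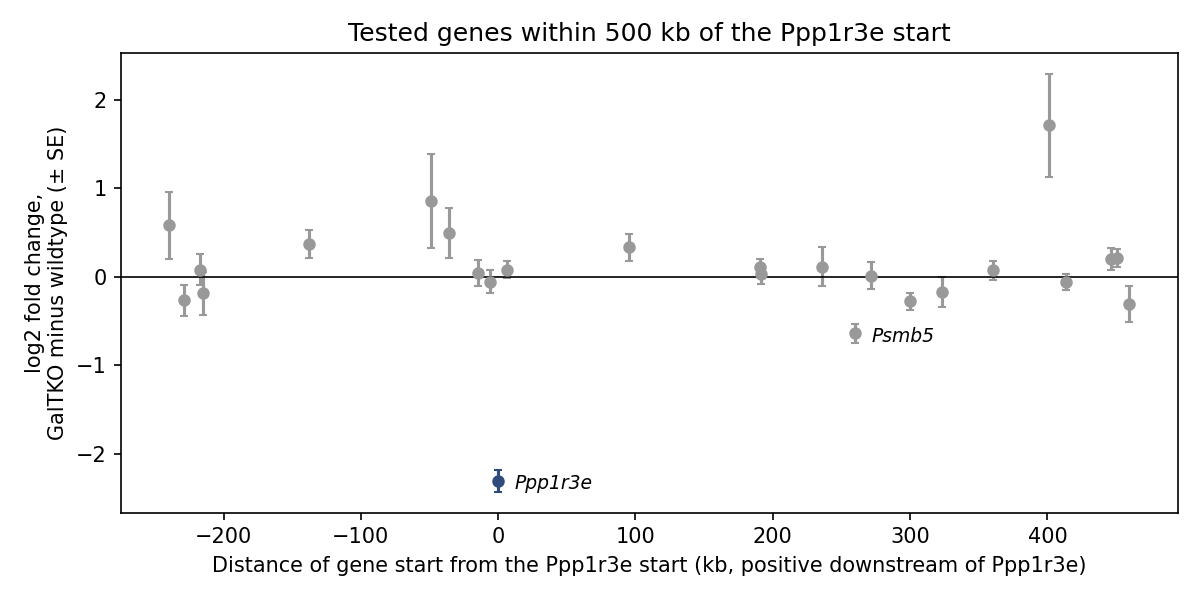
Log2 fold change between GalTKO and wildtype ovaries (vertical axis, bars are SE) of tested genes by the distance of their start from that of Ppp1r3e (horizontal axis, kb). Ppp1r3e lies at -2.31, the nearest genes on both sides lie near 0, and Psmb5 is labelled.

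The genes most like Ppp1r3e over the 6 libraries were found by the root mean square difference in log2 CPM after centring each gene on its own mean. Among 13302 protein-coding genes the smallest differences were those of Zfp991 (0.172), Neb (0.176), Dok6 (0.232), Zfp993 (0.275) and Piwil2 (0.288). Their log2 fold changes ran from -2.98 to -2.17, which the choice by likeness fixes. Piwil2 shares chromosome 14 with Ppp1r3e, from 70372477 to 70429383. Zfp991 (from 147132038) and Zfp993 (from 146610961) lie on chromosome 4, as does Galt, from 41755228 to 41758695. Neb lies on chromosome 2 and Dok6 on chromosome 18, which hold neither Ppp1r3e nor Galt. The part of position and of the mixed strain background in these differences and in that of Ppp1r3e was not tested. Wildtype means ranged from 1.07 CPM in Zfp993 to 29.1 CPM in Neb.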

How the data were processed

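The raw counts deposited by the authors cover 6 libraries in 1 table, per Ensembl gene. Per the labels' protocols, Ribo-Zero Gold depleted ribosomal RNA and libraries were stranded total RNA, so unspliced RNA may be counted. The submitters' processing notes list GRCm38, DESeq2 1.30.1, featureCounts 1.6.3, STAR 2.7.6a and cutadapt 1.16. For annotation release, strand setting and shared reads, the sources used here give nothing.

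Names, positions, coding sequences and union exon lengths came from GENCODE M21 (55227 of 55487 identifiers matched). Genes were tested with edgeR 4.0.16 in R 4.3.3. The filterByExpr filter (minimum count 10, minimum total 15) kept 16957 genes, which were scaled by TMM and fitted with a robust quasi-likelihood model on genotype alone. A gene passed at a Benjamini-Hochberg adjusted p under 0.05 over all tested genes, two-sided. SE was the log2 fold change divided by the square root of F. Libraries all differed by more than sampling noise (chi-square per degree of freedom at least 12). The test was also tried on simulated data, with changes planted in genes outside the lowest levels. It recovered 68% of 100 planted 2-fold changes and 94% of 100 planted 4-fold changes, with 9 false calls among 171. Alternatives were other scalings and filters, DESeq2 1.42.0, a replicate block and each library left out.

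The members and lists were chosen with earlier results of these data known. Named genes are the 10 members, Galt, other pathway genes that passed and up to 2 more per role with the smallest p, the 5 genes most like Ppp1r3e (mean of at least 1 CPM in a group, no predicted or clone-named genes) and any gene overlapping it. Psmb5, Rem2, Homez, Bcl2l2, Ruvbl2, Gm36995, Flicr, Foxp3, Ppp1r3g, Gys2, Pygm, Ppp1ca, Ppp1cb and single marker genes were named after their values were seen.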

Additional observations from a re-analysis of the deposited data

How the results depend on the processing

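The number of genes called over the whole table was 433, and it became 1026 with DESeq2, 877 with no filter on low counts, and 165 to 742 with a library left out (742 without GalTKO replicate 2). Ppp1r3e, whose difference chose the group, is the 1 glycogen gene of 10 called, so only the other calls bear reading. The count was 2 with upper-quartile scaling, DESeq2 or no filter on low counts, by the addition of Ppp1r3b at a log2 fold change of 1.06, 1.02 and 1.02. Of the other pathway genes 1 was called, and 0 were called with upper-quartile scaling, the filter of 1 CPM in 3 libraries or the replicate block, and 0 to 1 with a library left out. Prkag2, the gene concerned, stood at -0.52, -0.54 and -0.53 in the first 3 of these fits. The share of the summed Ppp1r3 level held by Ppp1r3e was 59.2% in wildtype and 17.1% in GalTKO ovaries when counts were not divided by length, and it ran from 68.9% to 70.2% and from 23.0% to 27.2% with a library left out. Ppp1r3e stayed lower in every fit run, from -2.34 to -2.27. These fits reuse the libraries that chose it, so they give no separate support.

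The sign of small log2 fold changes turned in some fits with a library left out, and none of these genes was called. Over these fits Ppp1r3d ran from -0.19 to 0.09, Ppp1r3f from -0.26 to 0.31, Gbe1 from -0.03 to 0.06, Pygl from -0.07 to 0.58, Gaa from -0.28 to 0.00 (just above 0) and Ppp1r3a from -0.48 to 0.17. Except for Pygl, where the value rests on GalTKO replicate 2, the cause was not tested. Smaller groups have less power. The labels give no pairing of the samples. Same-numbered libraries had correlations of their deviations from the group mean of 0.0926, -0.0404 and 0.078. Differently numbered ones ran from -0.118 to 0.029. With so few libraries these values cannot decide whether samples were paired. With the replicate block 321 genes were called, Ppp1r3e stood at -2.31 and Ppp1r3b at 1.04. Depth limits Ppp1r3f, Ppp1r3a and Ppp1r3g, with at most 45 counts in a library.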
